A study of Nothobranchius furzeri with 10 samples.

Results

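The genes described here are those that took large shares of liver reads with a limited spread between libraries. They are the 125 of 26739 counted genes that averaged at least 1000 CPM (reads of a gene per 1000000 counted reads of its library) over 10 libraries and whose highest library was less than 5 times the lowest. This highest-to-lowest value is called the ratio below. Members were thus chosen by the CPM of all 10 libraries, and their abundance and their limited spread are given as a description with no test. Another 36 genes passed the abundance bound and not the ratio bound, so members made up 77.6% of the 161 genes with at least 1000 CPM.

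RNA was sequenced from livers of male Nothobranchius furzeri, an annual killifish, of strain GRZ at 10 weeks of age, and every sample carries the label swim-tunnel, in which fish swim against a current. No resting or other group is labelled, so the 10 libraries form 1 group and no effect of exercise was measured. No label ties a library to a single fish, and the spread between libraries may in part be technical. Libraries are called 1 to 10, a number that serves only as a name. Their titles carry the numbers 74 to 78 (libraries 1 to 5) and 80 to 84 (libraries 6 to 10), with no meaning given.

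The liver makes most of the proteins of blood plasma, and in its main cell type, the hepatocyte, transcripts of secreted proteins such as apolipoproteins, transferrin and protease inhibitors can take a large part of the messenger RNA. Transcripts that all cells need, such as those of ribosomal proteins and of energy metabolism, are usually abundant there too. The deposited tables give identifiers without names, and 0 of 26739 matched the reference gene table. No member can therefore be placed in either class, the tissue label was not checked against marker genes, and members are given by identifier and implied gene length. In whole tissue, fewer cells of a type and less RNA per cell cannot be told apart.

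Depth ran from 13806555 counted reads in library 2 to 39405713 in library 7. The lowest count of any member in any library was 10052, so counting error was small: it gives a coefficient of variation (CV) of 0.469% for the median member, against an observed CV of 17.3%. On the CPM scale, 65 of the 125 members had their highest or lowest value in library 1 (52.0%, against 36.4% of 14013 tested genes, those with at least 1 CPM in at least 5 libraries). With TMM scaling (library sizes corrected by trimmed means of M values) this count fell to 36 (28.8%, against 36.6% of tested genes), and library 7 was the lowest for 52 members. Several results that rest on library 1 are given with and without that library. Rank movement and the concentration of reads are given only with it.

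Members reached up to both bounds of the rule. The least abundant member averaged 1009 CPM, while the nearest gene below the bound averaged 985 CPM, and 14 members lay under 1100 CPM. At the other bound the highest ratio of a member was 4.93 and the lowest ratio left out was 5.05. A ratio of 4 or more was found in 6 members, and 5 genes were left out with a ratio from 5 to 6.

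Members together held 40.7 ± 2.61% of the counted reads (SD, n = 10). The share was lowest in library 6, at 35.7% (exact 95% binomial interval 35.7 to 35.8%), had a median of 42.1% and was highest in library 1, at 43.0% (43.0 to 43.1%). Libraries 2, 6 and 7 lay under 40% and the others above, and without library 1 the mean was 40.4 ± 2.63% (SD, n = 9). These intervals cover counting error only. The 36 genes of like abundance and wider spread held 12.3 ± 2.37%, from 8.41% in library 3 to 16.0% in library 4. The CV over libraries was 6.41% for the summed share of the members and 19.3% for that of the 36 genes, an order that the ratio bound favours. When reads were divided by gene length, members held 41.2 ± 2.95% of the summed RPKM (CPM per kilobase of gene length, recomputed from the counts; SD, n = 10). Its lowest value was 37.1%, in library 6, and its highest 45.6%, in library 8. Library 1, first by reads, stood at 38.8% on this scale, with libraries 6 and 7 below it.

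**Figure D1:**
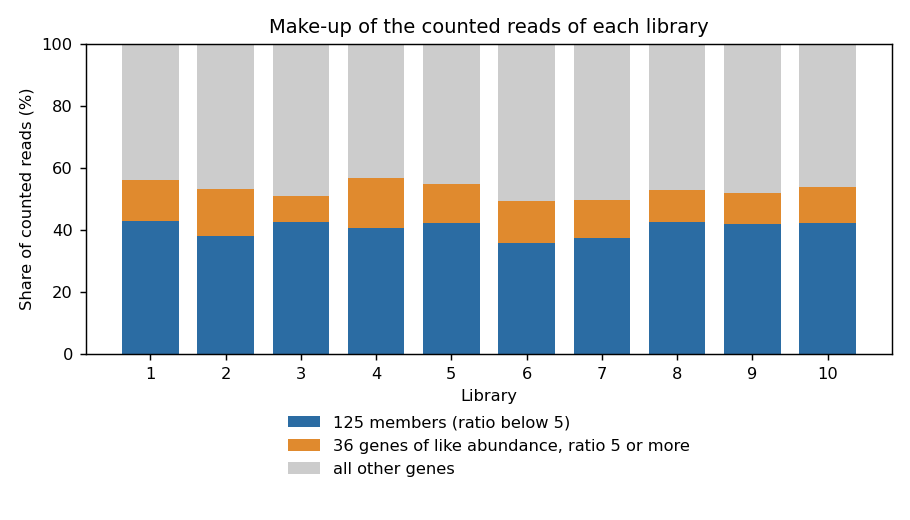
Share of counted reads (%, vertical axis) in each of the 10 libraries (horizontal axis), for the 125 members, the 36 genes with at least 1000 CPM and a ratio of 5 or more, and all other genes. The members' part stays between 35.7 and 43.0%, while the part of the 36 genes runs from 8.41 to 16.0%.

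The members' reads were concentrated in few of them. A set of 16 held 50% of the members' mean share, the leading 4 held 29.4% and the leading 10 held 43.4%. Only 6 members averaged over 10000 CPM and 76 averaged under 2000 CPM.

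The leading member by reads was Nfu_g_1_014314, with an implied gene length of 783 bases. It stood at 31427 CPM in its lowest library (1), at a median of 35041 CPM and at 41757 CPM in its highest (5), or 35804 ± 4059 CPM (SD, n = 10). Nfu_g_1_015843, of 6210 bases, took nearly as many reads, with 34885 ± 14784 CPM (SD, n = 10). It lay between 21773 CPM (library 6) and 38274 CPM (library 9) in every library but library 1, where it reached 73306 CPM. Without library 1 it averaged 30616 ± 6393 CPM (SD, n = 9). The reads of Nfu_g_1_014314 over those of Nfu_g_1_015843 therefore ranged from 0.429 in library 1 to 1.55 in library 10.

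Per length these genes were far apart. Nfu_g_1_014314 averaged 45726 RPKM, the highest of all genes, and Nfu_g_1_015843 averaged 5618 RPKM, at rank 12. The RPKM of Nfu_g_1_014314 was 9.08 ± 2.67 times that of Nfu_g_1_015843 (SD, n = 10), from 3.40 times in library 1 to 12.3 times. Of the 125 members by reads, 65 were among the 125 highest genes by mean RPKM, and the lowest placed member stood at rank 532. The next member by reads, Nfu_g_1_020367, of 5098 bases, had 20651 CPM in library 4, a median of 26131 CPM and 36454 CPM in library 1. It ranked 15 by mean RPKM, at 5276 RPKM.

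Ranks by reads were given among all genes of a library, where 1 is the gene with most reads. Only 4 members stayed within the top 10 of every library, 18 within the top 50, 54 within the top 100 and 115 within the top 200. The smallest movement was that of Nfu_g_1_014314, between ranks 1 and 3, followed by Nfu_g_1_015843, between ranks 1 and 4, and Nfu_g_1_020367, between ranks 2 and 5. The median member moved over 44 ranks and the widest over 226. Of the 10 members that left the top 200 in some library, 7 had their lowest value in library 1, and the lowest rank reached was 320. Movement depends on how crowded the ranks are: it had a median of 6.5 ranks among the 10 leading members and of 52 among members 51 to 125, although the median ratio was 2.11 in the leading members and 1.47 in the lower ones. Among the 36 genes of wider spread the median movement was 319.5 ranks, and 10 stayed within the top 200. The ratio bound that divided these genes from the members favours this difference, so nothing is read from it.

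The order of the members by reads was similar from library to library, which the bound on the ratio favours. Over 45 pairs of libraries the Spearman correlation across the 125 members had a median of 0.868, from 0.690 (libraries 1 and 8) to 0.952 (libraries 2 and 5). Over all tested genes the same correlation was higher in most pairs, at 0.822 for libraries 1 and 8 and 0.970 for libraries 2 and 5. It was lower than in members only for some pairs that include library 3 or 7. These were libraries 3 and 4 (0.896 against 0.930 in members), 3 and 8 (0.840 against 0.845) and 3 and 10 (0.877 against 0.878). The others were libraries 7 and 8 (0.905 against 0.931) and 7 and 9 (0.925 against 0.933). A similar order was thus also found over all tested genes. These cover a far wider range of CPM, which favours a higher correlation, so the values are not matched. The Spearman correlation here is taken across genes, which are not independent replicates. The 9 pairs with library 1 had a median of 0.756 and at most 0.845, and the 36 other pairs had a median of 0.880 and at least 0.783.

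**Figure D2:**
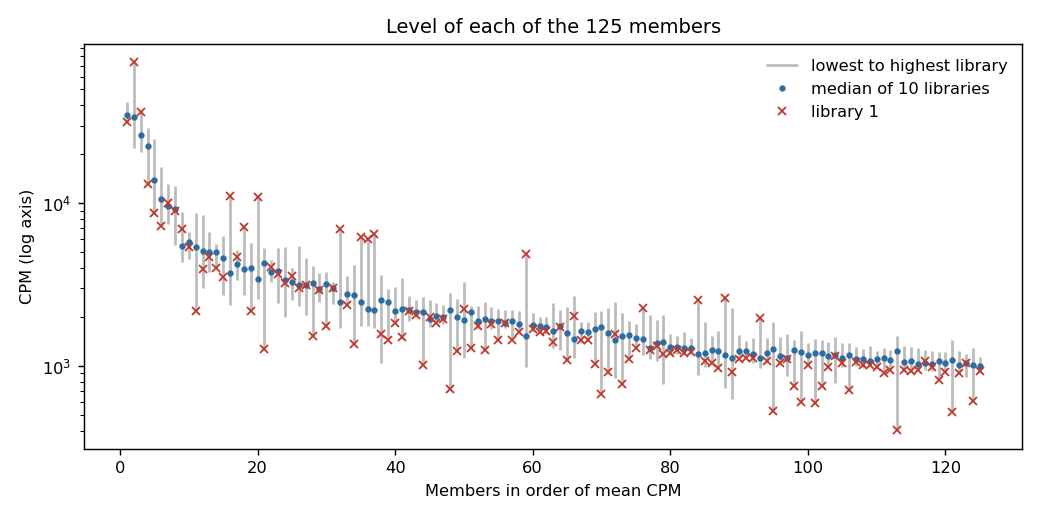
CPM (log axis, vertical) of each of the 125 members in order of mean CPM (horizontal axis), as the range over 10 libraries (grey line), the median (blue point) and library 1 (red cross). Library 1 is the upper end of the range for 14 members and the lower end for 51.

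The ratio had a median of 1.79 over members, with quartiles of 1.39 and 2.61. It was below 1.5 in 49 members and 3 or more in 18. Without library 1 its median was 1.52, with 61 members below 1.5 and 4 at 3 or more. For scale, the median ratio over 13973 tested genes with reads in every library was 2.64. Because a bound on the ratio chose the members, nothing is read from that difference.

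The steadiest member was Nfu_g_1_013894, of 1631 bases. It ran from 1604 CPM in library 7, by a median of 1759 CPM, to 1990 CPM in library 2, a ratio of 1.24. Nfu_g_1_006842, of 2524 bases, was next with a ratio of 1.25, from 904 CPM in library 8, by a median of 992 CPM, to 1127 CPM in library 5. In both genes library 1 lay inside the range of the others. The 49 members with a ratio below 1.5 held 11.5% of reads on average and included the leading gene, Nfu_g_1_014314. Of these members 37 belonged to 1 co-varying block described below. Their median length was 1518 bases, against 2797 bases for the other 76 members.

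At the other end, the widest members were set by library 1. Nfu_g_1_012082, of 1196 bases, was at 982 CPM in library 6, at a median of 1535 CPM and at 4847 CPM in library 1, a ratio of 4.93. Nfu_g_1_018732, of 1231 bases, was at 2363 CPM in library 2, at a median of 3714 CPM and at 11077 CPM in library 1, a ratio of 4.69. Without library 1 these ratios were 2.37 and 2.30. Of the 18 members with a ratio of 3 or more, 16 had their highest or lowest value in library 1.

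Library 1 was lowest for 51 members and highest for 14, while library 5 was highest for 38. Part of this follows from the scale. The log2 CPM of the median tested gene, taken against that gene's mean over libraries, lay at -0.13 in library 1 and from -0.21 in library 4 to 0.16 in library 7. With TMM scaling, whose factors ran from 0.872 to 1.12, library 1 was lowest for 21 members and highest for 15, and library 4 was highest for 45. Relative to the median tested gene, the median member lay at -0.03 in library 1, between 0.01 and 0.30 in libraries 2 to 5, between -0.30 and -0.06 in libraries 6 to 9 and at 0.09 in library 10. Which library is lowest for most members thus changes with the scaling.

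The Pearson correlation of log2 CPM over the 10 libraries had a median of 0.218 over 7750 member pairs and of 0.0580 over all pairs of 13973 tested genes. It was above 0.8 in 12.1% of member pairs and in 3.42% of pairs of tested genes, and below -0.8 in 1.02% and 1.17%. Without library 1 the member median was 0.175 against 0.0703 in tested genes, with 11.2% and 4.56% of pairs above 0.8. Among the genes of wider spread, 35 had reads in every library. Their 595 pairs had a median of 0.0269, and 23.5% were above 0.8, a larger share than in the members. For these pairs no value with a library left out was computed, so how far they rest on a single library is unknown. All pairs share the same libraries and a fixed total of reads, and low genes carry more counting noise, so no p-value is given. The members' median moved to 0.405 with TMM scaling and to 0.468 when each library was centred on the mean of tested genes. With values centred within libraries 1 to 5 and within libraries 6 to 10 it was 0.369. No median over tested genes was computed in these 3 settings, so they cannot be set against 0.0580.

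Average-linkage clustering of the members on this correlation, divided at a height of 0.3, gave 8 blocks of at least 5 members, which held 98 of the 125. The other 27 members, of which 5 are among the 10 leading members, held 10.6 ± 0.662% of reads (SD, n = 10). Blocks are numbered by size. Since the values that formed the blocks are the same as those described, no block was tested. Rebuilt without library 1, the same steps gave 6 blocks with 76 members. The scale also set the blocks: with TMM scaling blocks 5 and 6 had no counterpart, while 40 members of block 1, 4 of block 7 and 5 of block 8 fell into 1 block of 54.

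**Figure D3:**
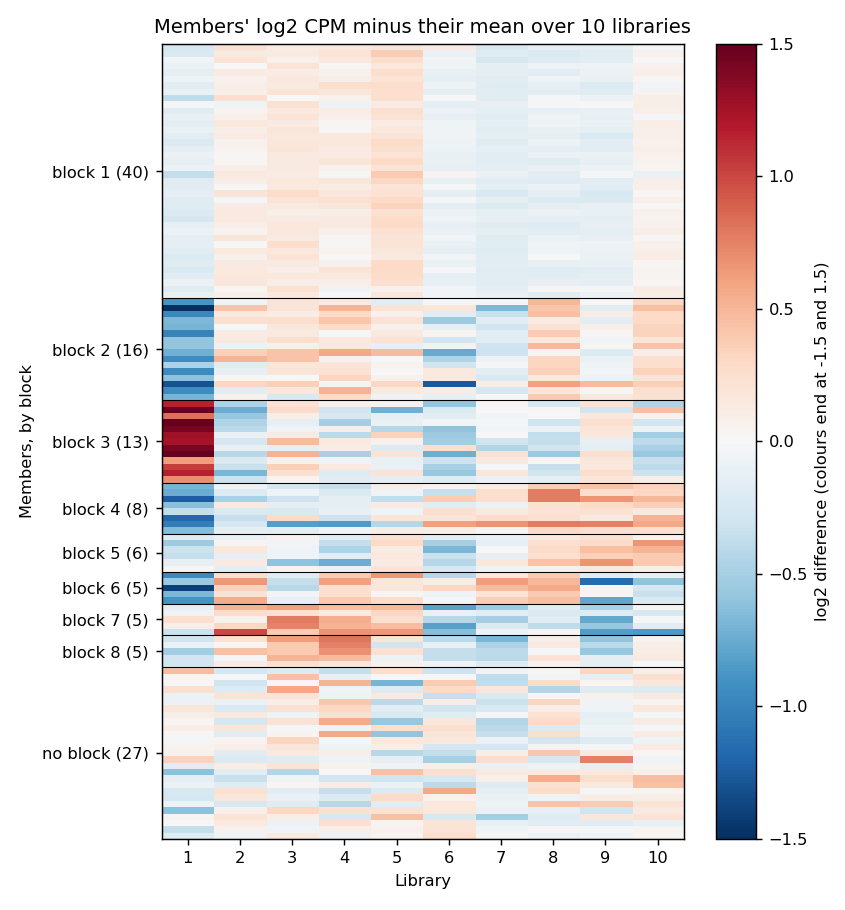
Log2 CPM of each of the 125 members (rows, by block) minus its mean over the 10 libraries (columns); red is above and blue below the mean. Block 3 is red and blocks 2, 4 and 6 are blue in library 1, while block 1 shows small differences throughout.

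Block 1 was the largest and the steadiest. Its 40 members averaged between 1009 and 4854 CPM, and their ratios ran from 1.24 to 1.69 with a median of 1.34. Together they took 5.53% of reads in library 7, a median of 6.17% and 7.28% in library 5, or 6.23 ± 0.632% (SD, n = 10). Libraries 2 to 5 and 10 were above that mean and libraries 1 and 6 to 9 below it. Members were highest in library 5 in 30 of 40 cases. The median correlation within the block was 0.904 and stayed at 0.906 without library 1, although the loosest pair had only 0.245. Relative to the median tested gene, the block lay at -0.02 log2 units in library 1, between 0.05 and 0.32 in libraries 2 to 5, between -0.32 and -0.15 in libraries 6 to 9 and at 0.08 in library 10.

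Block 1 also stood out by length, which the rule did not use. Its median was 1127 bases, from 321 to 3346, against 2314 bases over all members and 2847 bases over 13853 tested genes with an implied length. Of the 28 members shorter than 1000 bases, 18 were in block 1. The 28 short members had a median ratio of 1.39 and the 97 longer ones a median of 1.92. Among all members 22.4% were shorter than 1000 bases, against 15.6% of tested genes. Lengths were compared as a description only, since genes are not replicates.

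The member of block 1 with most reads was Nfu_g_1_016049, of 2577 bases. It ran from 4000 CPM in library 1, by a median of 4988 CPM, to 5644 CPM in library 2. The closest pair of all members was also in this block. Nfu_g_1_013019, of 627 bases, ran from 1998 to 2532 CPM and Nfu_g_1_009939, of 513 bases, from 996 to 1329 CPM, both lowest in library 7 and highest in library 3. Their reads kept a proportion of 1.91 to 2.03 in every library. Pearson's r of their log2 CPM was 0.992 and Spearman's rho 0.964 (n = 10), and r was 0.972 without libraries 3 and 5. This pair was chosen as the extreme of 7750, and r has no test.

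**Figure D4:**
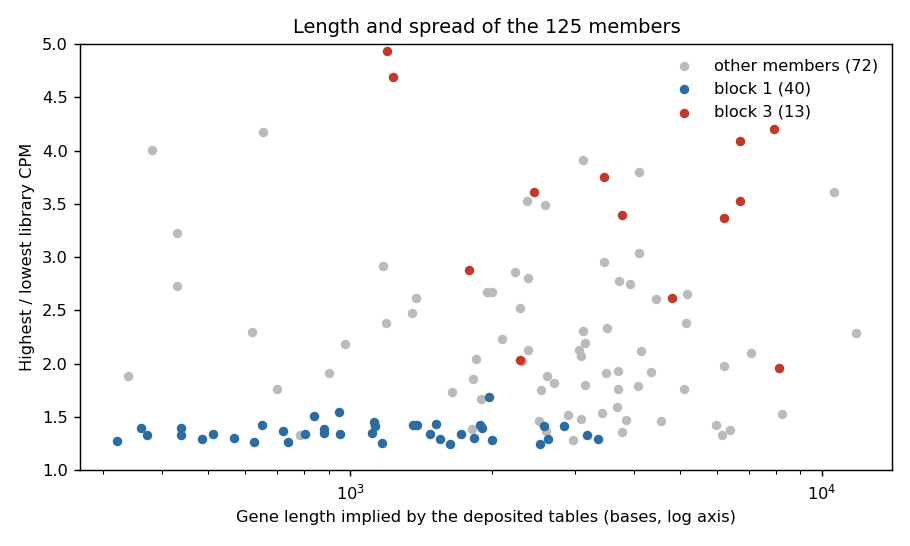
Highest over lowest library CPM (vertical axis) against implied gene length in bases (log axis) for the 125 members. The 40 members of block 1 (blue) lie between ratios of 1.24 and 1.69, and 9 of the 13 members of block 3 (red) lie at 3 or more.

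Block 3 had the largest mean share of reads over 10 libraries, and block 1 had it without library 1. The 13 members of block 3, which include Nfu_g_1_015843, took 14.2% of the reads of library 1 and between 4.54% (library 6) and 6.98% (library 3) of any other library. The mean was 6.55 ± 2.83% with library 1 (SD, n = 10) and 5.70 ± 0.913% without it (SD, n = 9). All 13 members were highest in library 1, where the median member lay 1.24 log2 units above its mean, or 1.37 relative to the median tested gene. The block rested on that library. Its median correlation was 0.833 over 10 libraries and 0.445 over the other 9, and 6 members stayed together when the blocks were rebuilt without library 1. Its members had a median length of 3768 bases and none was under 1000 bases. Blocks 6, 7 and 8 also had none under 1000 bases, with medians of 3923, 3446 and 2613 bases. The quartiles of tested genes were 1434 and 4877 bases.

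Blocks 2, 4 and 6 were low in library 1. Block 2 held 16 members, 15 of which had their lowest value there, and took 1.73% of reads in library 1 against 2.70 to 3.97% in the others. Its leader, Nfu_g_1_016129, was at 2173 CPM in library 1, at a median of 3992 CPM and at 5668 CPM in library 8. Block 4 held 8 members, all lowest in library 1, with 2.86% of reads there against 4.03 to 7.05% elsewhere. Its leader Nfu_g_1_002363, with 13188 CPM in library 1, a median of 22507 CPM and 28929 CPM in library 9, is the fourth of all members by reads. Block 6 held 5 members, with 0.550% of reads in library 1 against 0.791 to 1.37% elsewhere. Its leader Nfu_g_1_013138 was at 1372 CPM in library 1, at a median of 2721 CPM and at 4169 CPM in library 5. Relative to the median tested gene, the median member lay at -0.67, -0.60 and -0.77 log2 units in library 1 for blocks 2, 4 and 6. Without library 1 the median correlations within these blocks went from 0.816 to 0.577, from 0.828 to 0.695 and from 0.802 to 0.673. No group of block 6 remained when the blocks were rebuilt.

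Which blocks ran opposite depended on library 1. The log2 shares of blocks 2 and 3 had a Pearson r of -0.771 over 10 libraries, the most negative of any pair of blocks, and of -0.0539 without library 1. For blocks 4 and 7 r was -0.481 over 10 libraries and -0.710 without library 1, for blocks 1 and 4 it was -0.166 and -0.679, and for blocks 4 and 8 it was -0.210 and -0.576. The most negative pair of members joined blocks 2 and 3. Nfu_g_1_002596, of 7894 bases and in block 3, was at 2586 CPM in library 4, at a median of 3404 CPM and at 10860 CPM in library 1. Nfu_g_1_012083, of 654 bases and in block 2, had the opposite ends, with 1270 CPM in library 1, a median of 4275 CPM and 5299 CPM in library 4. Pearson's r was -0.923 and Spearman's rho -0.939 (n = 10), and r was -0.725 without library 1 and -0.685 without libraries 1 and 4. A gene that takes more of a fixed total lowers the shares of all others, and the part of this in the negative correlations was not tested.

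**Figure D5:**
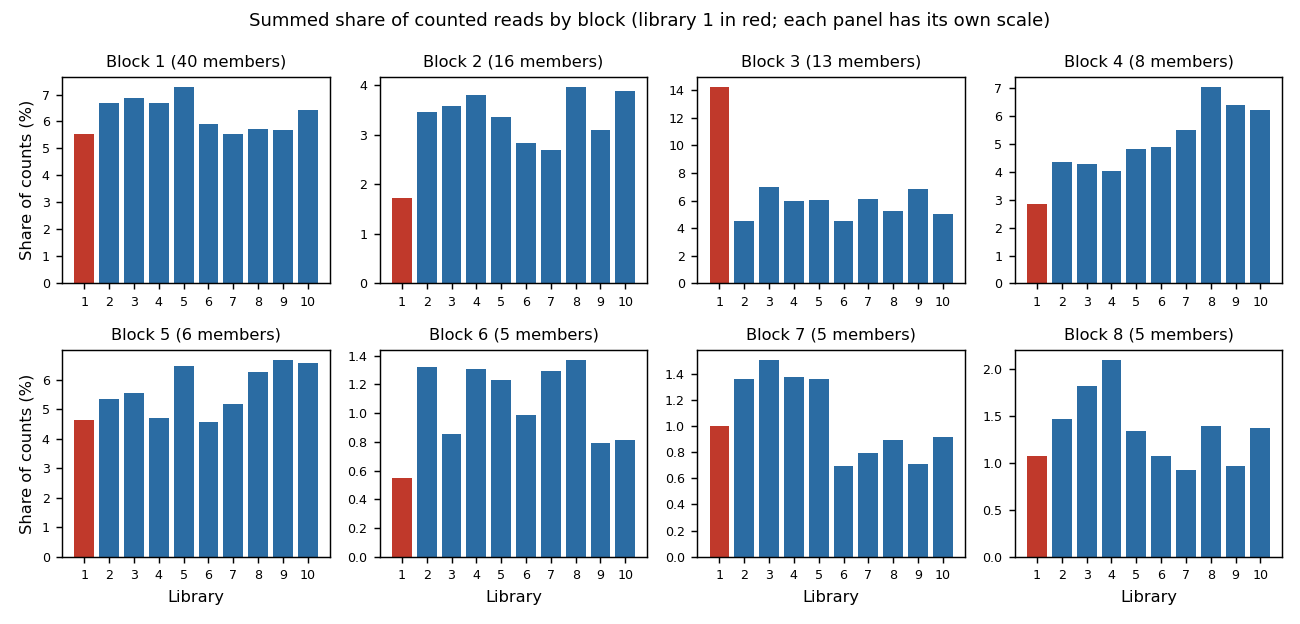
Summed share of counted reads (%, vertical axes, each panel with its own scale from 0) of the 8 blocks in the 10 libraries (horizontal axes), library 1 in red. Block 3 reaches 14.2% in library 1, while blocks 2, 4 and 6 have their lowest shares there.

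In the summed shares of blocks 5, 7 and 8, library 1 was neither the highest nor the lowest. For block 5 the share in library 1, 4.63%, was close to its lowest, and its leader was itself lowest in library 1. Block 5, with 6 members led by Nfu_g_1_014314, ran from 4.56% of reads in library 6, by a median of 5.45%, to 6.66% in library 9. Its median correlation was 0.746, and 0.781 without library 1. Block 7, with 5 members, ran from 0.692% in library 6, by a median of 0.954%, to 1.503% in library 3. Its leader Nfu_g_1_004806 was at 2008 CPM in library 6, at a median of 3385 CPM and at 5360 CPM in library 3. Block 8, also with 5 members, ran from 0.924% in library 7, by a median of 1.36%, to 2.10% in library 4. Its leader Nfu_g_1_022309 was at 3005 CPM in library 7, at a median of 5060 CPM and at 8425 CPM in library 4. The shares of blocks 7 and 8 followed that of block 1, with Pearson r of 0.820 and 0.727 on the log2 scale, and of 0.879 and 0.704 without library 1. In the rebuilt blocks, 33 members of block 1, 4 of block 7 and 3 of block 8 fell into 1 block of 43.

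Few members separated the runs of title numbers. In 7 members (5.60%) the ranges of libraries 1 to 5 and 6 to 10 did not overlap, against 17.7% of tested genes. The tested genes, here and below, were not limited to a ratio below 5, which 11193 of 14013 met. The member rule leaves out wide differences, so these shares are not matched. Libraries 1 to 5 were higher in 3 of them, Nfu_g_1_012642, Nfu_g_1_012447 and Nfu_g_1_023068, all in block 7. They were lower in 4, of which Nfu_g_1_010874, Nfu_g_1_007226 and Nfu_g_1_013207 are in block 4 and Nfu_g_1_009078 is in none. The widest gap, relative to the level, was in Nfu_g_1_013207, with 528 to 912 CPM in libraries 1 to 5 and 1622 to 1861 CPM in libraries 6 to 10. Among tested genes 466 (3.33%) were higher and 2008 (14.3%) lower in libraries 1 to 5, and with TMM scaling 925 and 1343. With TMM scaling 8 members were higher and 2 lower, against 16.2% of tested genes in either direction.

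The count of separated members depended on library 1. Between libraries 2 to 5 and libraries 6 to 10, 32 of the 125 did not overlap (25.6%, against 23.0% of tested genes), a share close to the background. Their directions, however, were divided otherwise than in the background. Libraries 2 to 5 were higher in 28 members and lower in 4, whereas 5.61% of tested genes were higher and 17.3% lower. Block 1 held 19 of the 28, block 7 held 5, block 8 held 3 and block 2 held 1. Without library 1 the shares of blocks 7 and 8 followed that of block 1, with r of 0.879 and 0.704. The 28 members thus largely share 1 course and are not separate observations of a direction. With TMM scaling and without library 1, 22 members were higher and 2 lower, against 9.13% and 13.0% of tested genes. With the member rule applied again to the remaining libraries, the count was 33 without library 1, 14 without library 6 and 15 without library 10. The background rose too: 3197, 3367 and 3209 tested genes did not overlap in these settings, against 2474 with all 10 libraries. The groups are not labelled conditions, and what separates these runs was not tested.

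Some members stood in adjacent rows of the table and moved together. Nfu_g_1_019236, Nfu_g_1_019160 and Nfu_g_1_019225, of 2098, 974 and 3118 bases, occupy consecutive rows and are in no block. They were singled out after their values were seen. Each was lowest in library 5 and highest in library 4, with 2056 to 4593 CPM, 2441 to 5324 CPM and 5553 to 12798 CPM. Together they took 1.01% of reads in library 5 and 2.27% in library 4. Pearson's r of log2 CPM was 0.976 for Nfu_g_1_019236 and Nfu_g_1_019160 (Spearman's rho 0.964, n = 10) and 0.945 for Nfu_g_1_019160 and Nfu_g_1_019225 (rho 0.879). Without the 2 libraries farthest from the median it was 0.957 and 0.878. Adjacent rows are not always alike: Nfu_g_1_020919 and Nfu_g_1_021170, the other adjacent pair of members, had an r of -0.0689 (rho -0.164). No coordinates were available for the identifiers, so adjacent rows need not be adjacent in the genome. The counting options are unknown, and genes with near-identical or overlapping sequence could have split reads, so these values are uncertain.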

How the data were processed

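The authors deposited read counts per gene for 10 liver libraries, as whole numbers. The submitters' processing notes name bcl2fastq 1.8.4, the aligner STAR 2.4.1d and the counter featureCounts 1.4.6-p4. The sources used here do not give the build, the annotation or the counting settings, strand included. The authors also deposited RPKM values. For a gene, count over RPKM should imply 1 length in all libraries. The median CV of this length was 52.0% when own totals were assumed and 0.00122% when totals rotated down the rows (3039 genes above 5 RPKM). Deposited RPKM values were therefore used only for these lengths, and RPKM was recomputed from counts and own totals.

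CPM was the count over the column total, and the main scaling was this total. Members, gene lists and tests were chosen with earlier results of these data known. Genes named are the 3 members with most reads, the 2 lowest and 2 highest ratios, the 2 with least rank movement, the block leaders, the extreme pairs, and adjacent or separated members chosen after their values were seen. The marker genes listed for cell types were not matched. Reported correlations need at least 6 libraries, and fewer were not used. Depth of 13806555 to 39405713 reads and exact 95% binomial intervals bound counting error only. In simulated data the steps recovered a planted block, separated genes and lengths. The planted block shared 1 course exactly, the separated genes had a wide gap, and the lengths were built with the same rotation of totals. This was simpler than the measured data, so it checks the steps only and says nothing of the blocks or lengths found here. R 4.3.3, edgeR 4.0.16 (TMM), DESeq2 1.42.0 (median-ratio size factors) and Python 3.11.15 were used. Alternatives were other scalings, bounds, thinning to 13806555 reads, block settings and each library left out. No test across genes was fitted, since the labels give 1 group.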

Additional observations from a re-analysis of the deposited data

Results flagged for a closer look

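In 6 of 35 values examined over the 10 libraries, library 1 lay far from the others. This criterion marks about 1 in 20 values by chance, but that rate does not apply here, because some of the genes were named as extremes of these same CPM and the values share libraries. It marked 14.9% of tested genes. The 6 values are not independent: 5 are members of block 3 and the sixth is the share of that block. Nfu_g_1_015843 was at 73306 CPM in library 1 and at most 38274 CPM elsewhere, and Nfu_g_1_002596 was at 10860 CPM against 4350 CPM. Nfu_g_1_018732 was at 11077 CPM against at most 5424 CPM, Nfu_g_1_021170 at 6456 CPM against 2864 CPM, and Nfu_g_1_012082 at 4847 CPM against 2328 CPM. Block 3 as a whole took 14.2% of reads in library 1 and at most 6.98% elsewhere. Over all members the criterion marked 16 of 125 (12.8%), each time for library 1, which was the highest in 13 and the lowest in 3. Among all tested genes that were marked, library 1 accounted for 38.8%.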

How the results depend on the processing

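The member rule gave 125 genes with thinned counts and with median-ratio size factors (123 shared) and 124 with TMM scaling (122 shared). With 1 library left out it gave 124 to 143. With bounds of 500 and 2000 CPM it gave 229 and 49, the share of reads was 48.0% and 30.2%, the median Spearman correlation between libraries was 0.894 and 0.818, and members in blocks numbered 175 and 22. At 2000 CPM, 49 stayed within the top 200, the median ratio was 2.23 and the median pairwise correlation 0.0790, and at 500 CPM the median length was 1901 bases. With ratio bounds of 3 and 10 the share was 32.8% and 44.8% and the Spearman correlation 0.888 and 0.836, and at 3 the median pairwise correlation was 0.323. These follow from which genes enter. The pairwise median was 0.405 (TMM), 0.409 (median-ratio), 0.468 (centred log ratio) and, chosen after seeing the data, 0.369 (centred within runs of title numbers), and the cause was not tested. A block height of 0.2 left 65 members in blocks. With 1 library left out the member rule was applied again, so the genes differ from the 125. Without library 3, 143 genes passed, of which 19 are not among the 125, and without library 1 there were 7 such genes. The ranges below therefore differ from values given above for the same 125 members without library 1. Leaving out 1 library gave shares of 40.4 to 47.7% (highest without library 3), 114 to 127 members within the top 200, Spearman medians of 0.850 to 0.870, median ratios of 1.55 to 1.93, pairwise medians of 0.146 to 0.253, 80 to 113 members in blocks, 7 to 33 separated members, and median lengths of 1997 to 2366 bases for members and 2854 to 2865 bases for tested genes (2524 bases over all genes with a length). Separated tested genes numbered 2559 to 3367 with 1 library left out, against 2474 with all libraries. Block 1 kept at least 31 of 40 members together with 1 library left out, and blocks 5, 6 and 7 had no match in 3, 3 and 1 of these 10 settings. In the 12 other settings blocks 3, 4, 5, 6, 7 and 8 had no match in 1, 2, 4, 7, 1 and 1. A block counted as matched when at least 1 of its members fell into any block, so a match can be weak. Block 7 was matched by 1 of 5 members with Spearman correlation and with values centred within runs. The same held for block 6 without library 3 and for block 8 without library 6. TMM scaling left blocks 5 and 6 without a match, and a ratio bound of 3 did so for block 3. No paired analysis was possible because all libraries form 1 group. A correlation within each run of 5 libraries was not computed, since a minimum of 6 was set. Thinning to the smallest library total kept the same 125 members but left 92 in blocks instead of 98: block 2 kept 11 of 16 together, and at most 1 of the 5 members of block 7 fell into any 1 block.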

Other observations

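Genes outside the member bounds were set against the mean course of each block. The genes used were the 13848 tested genes with reads in every library that are no members. Of these, 1381 (9.97%) had a Pearson correlation above 0.8 with the mean course of block 4 over the 10 libraries, and 1767 (12.8%) without library 1. For block 1 these numbers were 140 (1.01%) and 284 (2.05%), with a median length of 1811 bases for the 140. For block 3 they were 281 (2.03%) and 34 (0.246%), so most of the likeness to block 3 rested on library 1. Block 7 was followed by 377 genes (2.72%), and by 612 (4.42%) without library 1. As for block 3, the numbers fell without library 1 for block 2, from 280 (2.02%) to 123 (0.888%), and for block 6, from 48 (0.347%) to 21 (0.152%). They rose for block 5, from 131 (0.946%) to 180 (1.30%), and for block 8, from 119 (0.859%) to 222 (1.60%). For scale, 3.42% of all pairs of tested genes were above 0.8, and 4.56% without library 1, although a block mean is smoother than a single gene. The share for block 4 lay above these, and those for all other blocks lay below. All of these are on the CPM scale and were not repeated with TMM scaling. On the CPM scale 2008 tested genes were lower in libraries 1 to 5 without overlap, and 1343 were with TMM scaling. These counts are a description of shared courses over the same libraries and were not tested.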
